A study of Mus musculus with 6 samples.

Results

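The 9 genes described here, Irf7, Ifit1, Ifit3, Oasl2, Bst2, Ifitm3, Isg15, Usp18 and Ifi27l2a, are genes that type I interferons switch on. They were taken by gene symbol from a table of 38087 genes, and all 9 were found in it and passed the filter on low counts that 16337 genes passed. The table holds RNA-seq of brain from 3 wild-type (WT) and 3 Sgo1-/+ mice of strain C57BL6 per the labels (C57BL/6-based per the study's methods), with 1 library per mouse. Every mouse was 24 months old, and no mouse of either group received a treatment that the labels name. Sgo1-/+ mice are haploinsufficient for Shugoshin-1, a protector of sister chromatid cohesion,, and the study uses them as a model of cohesinopathy and chromosome instability. The dissection kept the cerebrum with cortex and hippocampus and, per the study's methods, left out olfactory bulb, cerebellum and medulla. Males gave WT replicate 1 and Sgo1-/+ replicate 2, and females the other libraries. Genotype cannot be told apart from the sequencing run, since run 258 held all WT libraries and run 259 all Sgo1-/+ libraries.

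Type I interferons are cytokines that cells release when they sense foreign or misplaced nucleic acid. They bind the receptor made of Ifnar1 and Ifnar2, whose kinases Jak1 and Tyk2 activate transcription factors such as Stat2. Stat2 and Irf9 are part of a complex that binds interferon-stimulated response elements in the promoters of antiviral genes. In brain, microglia, endothelium and the cells of the brain's borders are known to respond, and a raised interferon signature is a known feature of the ageing brain.

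All 9 genes had lower mean levels in Sgo1-/+ than in WT brain, with log2 fold changes between -0.59 (Bst2) and -2.10 (Ifi27l2a) and a median log2 fold change of -0.90 beside -0.0007 over all genes tested. None of the 9 passed the test after adjustment, and in none were the 3 Sgo1-/+ libraries all below the 3 WT libraries. Mice of the same genotype also differed widely. In most of the 9 genes WT replicates 1 and 2 were high, Sgo1-/+ replicate 1 was intermediate, and WT replicate 3 stood at or near the level of the Sgo1-/+ mice. For Ifitm3, Isg15 and Usp18, Sgo1-/+ replicate 1 lay above WT replicate 1.

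The promoters show what several of these genes share in sequence. The response element was searched as GAAANNGAAA on either strand (TTTCNNTTTC on the other), with overlapping matches allowed, in RefSeq promoters of build GRCm38.p6 that reach from 250 bases before to 50 bases after the gene's start. Of 32851 promoters in the mouse table, 3.44% (1131) held at least 1 match. A promoter was listed for 7 of the 9 genes, not for Ifi27l2a and Usp18, and 5 of the 7 held a match (Ifit1, Ifit3, Bst2, Isg15 and Ifitm3). Among the other genes on a list of interferon-induced genes, 33 of the 65 with a promoter entry held it. The 4 promoters with matches before the start are shown, each as the 160 bases that end at RefSeq's start, 5′ to 3′ along the gene's strand, with the matches in capitals. They lie at chr19:34640729-34640888 (Ifit1, plus strand), chr19:34583369-34583528 (Ifit3, plus strand), chr8:71537473-71537632 (Bst2, minus strand) and chr4:156200819-156200978 (Isg15, minus strand).
Ifit1: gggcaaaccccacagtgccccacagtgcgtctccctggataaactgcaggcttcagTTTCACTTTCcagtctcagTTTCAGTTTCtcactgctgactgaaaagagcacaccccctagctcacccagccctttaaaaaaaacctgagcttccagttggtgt
Ifit3: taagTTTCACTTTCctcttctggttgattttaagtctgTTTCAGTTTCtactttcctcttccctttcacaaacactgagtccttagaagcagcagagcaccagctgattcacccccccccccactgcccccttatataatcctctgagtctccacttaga
Bst2: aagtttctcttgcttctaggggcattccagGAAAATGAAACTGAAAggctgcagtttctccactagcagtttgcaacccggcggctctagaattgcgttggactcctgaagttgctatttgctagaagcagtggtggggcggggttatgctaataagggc
Isg15: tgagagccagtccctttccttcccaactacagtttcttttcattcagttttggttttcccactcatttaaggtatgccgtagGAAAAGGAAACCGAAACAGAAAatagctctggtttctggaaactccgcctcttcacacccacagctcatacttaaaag
Ifit1 and Ifit3 each held 2 separate matches, the nearest beginning 85 and 122 bases before the start. Bst2 held 2 overlapping matches and Isg15 held 3, so that the element runs on as a longer repeat. Ifitm3 held 2 matches, both after the start, and Oasl2 and Irf7 held none in this window. A match describes the letters and does not show that the site was bound in these brains.

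Levels are given as normalized counts, which are estimated counts scaled to a common library size by edgeR's TMM method. Values are listed for WT replicates 1, 2 and 3 and then for Sgo1-/+ replicates 1, 2 and 3. Each log2 fold change is for Sgo1-/+ against WT with its standard error (SE), from edgeR's quasi-likelihood test. The permutation p is exact and two-sided on the 6 normalized counts, and with 3 mice against 3 it cannot go below 0.1. The labels give each library its own mouse.

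Irf7 is the transcription factor that amplifies the response by driving interferon genes (ENSMUSG00000025498, chr7:141262706-141266481 of mm10, minus strand). Its normalized counts were 78.8, 140.6 and 49.7 in WT and 62.8, 24.5 and 30.5 in Sgo1-/+. The highest Sgo1-/+ mouse lay above the lowest WT mouse, so the groups overlapped. The means were 89.7 ± 46.4 (SD, n = 3) and 39.3 ± 20.6 (SD, n = 3), a log2 fold change of -1.19 (SE 0.50, edgeR unadjusted p = 0.0490, adjusted p = 0.9999, exact permutation p = 0.2). Leaving out WT replicate 2 brought the log2 fold change to -0.71. Irf7 shares 45 exon bases with Phrf1 on the opposite strand, and reads there cannot be assigned without a known strand setting.

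Ifit1 and Ifit3 encode tetratricopeptide proteins that bind viral RNA or its partners and block its translation (ENSMUSG00000034459, chr19:34640871-34650009, and ENSMUSG00000074896, chr19:34583531-34588731, both on the plus strand). Ifit1 had 159.1, 179.7 and 50.7 normalized counts in WT and 85.4, 32.3 and 51.2 in Sgo1-/+. WT replicate 3 thus lay at the level of Sgo1-/+ replicate 3, far below its 2 WT companions. The means were 129.8 ± 69.3 and 56.3 ± 26.95 (SD, n = 3 each), a log2 fold change of -1.20 (SE 0.54, edgeR unadjusted p = 0.0607, exact permutation p = 0.3). Ifit3 had 477, 450.5 and 172 normalized counts in WT and 269.5, 153.5 and 164 in Sgo1-/+. The same WT mouse was again low, and only Sgo1-/+ replicate 1 lay clearly above it. The Ifit3 means were 366 ± 169 and 196 ± 64.1 (SD, n = 3 each), a log2 fold change of -0.90 (SE 0.41, edgeR unadjusted p = 0.0636, exact permutation p = 0.2). Ifit3 is 97.8% identical to its neighbour Ifit3b over 1700 of its 1745 exon bases, so the division of reads between them is uncertain. The sum of both genes was 682, 636 and 243 in WT and 397, 257 and 253 in Sgo1-/+, in the same pattern (exact permutation p = 0.4).

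Oasl2, an oligoadenylate synthetase-like antiviral protein (ENSMUSG00000029561, chr5:114896936-114912234, plus strand), had 234, 245 and 77.6 normalized counts in WT and 138.1, 61.8 and 57.3 in Sgo1-/+. WT replicates 1 and 2 were above all other mice, and WT replicate 3 fell inside the Sgo1-/+ range. The means were 186 ± 93.7 and 85.7 ± 45.4 (SD, n = 3 each), a log2 fold change of -1.11 (SE 0.52, edgeR unadjusted p = 0.0692, exact permutation p = 0.2). Bst2 encodes tetherin, which holds budding virus at the cell surface (ENSMUSG00000046718, chr8:71534264-71537437, minus strand). It had 113, 130.3 and 64.9 normalized counts in WT and 81.7, 36.5 and 87.4 in Sgo1-/+, with a log2 fold change of -0.59 (SE 0.40, edgeR unadjusted p = 0.185, exact permutation p = 0.3). Here 2 of the 3 Sgo1-/+ mice lay above WT replicate 3, and leaving out single libraries gave -0.83 (without WT replicate 3) to -0.29 (without Sgo1-/+ replicate 2). Ifitm3 encodes a membrane protein that blocks the entry of enveloped viruses (ENSMUSG00000025492, chr7:141009586-141010770, minus strand). It had 240.1, 266 and 184 normalized counts in WT and 254, 80.0 and 96.2 in Sgo1-/+, with a log2 fold change of -0.68 (SE 0.44, edgeR unadjusted p = 0.167, exact permutation p = 0.3). Sgo1-/+ replicate 1 stood within the WT range for Ifitm3, and the difference in means came from Sgo1-/+ replicates 2 and 3. Leaving out Sgo1-/+ replicate 1 gave -1.38, and leaving out Sgo1-/+ replicate 2 gave -0.40.

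Isg15 is a ubiquitin-like protein that is attached to other proteins during the response (ENSMUSG00000035692, chr4:156199424-156200818, minus strand). Its normalized counts were 51.4, 78.6 and 29.5 in WT and 52.3, 20.8 and 18.4 in Sgo1-/+, with a log2 fold change of -0.78 (SE 0.52, edgeR unadjusted p = 0.181, exact permutation p = 0.3). Sgo1-/+ replicate 1 was as high as WT replicate 1, and the groups overlapped. Leaving out WT replicate 2 gave -0.39 for Isg15, and leaving out Sgo1-/+ replicate 1 gave -1.41. Usp18 is the protease that removes Isg15 and a brake on receptor signalling (ENSMUSG00000030107, chr6:121245906-121270916, plus strand). Its normalized counts were 34.3, 72.8 and 22.3 in WT and 42.1, 12.3 and 26.6 in Sgo1-/+, with a log2 fold change of -0.68 (SE 0.58, edgeR unadjusted p = 0.279, exact permutation p = 0.5). WT replicate 2 alone was well above the rest, and without it the log2 fold change of Usp18 was -0.07.

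Ifi27l2a, a small interferon-induced membrane protein (ENSMUSG00000079017, chr12:103442167-103443680, minus strand), had the widest range. Its normalized counts were 90.6, 75.5 and 12.3 in WT and 21.1, 8.11 and 12.3 in Sgo1-/+. WT replicates 1 and 2 stood far above the other mice, and WT replicate 3 was level with Sgo1-/+ replicate 3. The means were 59.5 ± 41.5 and 13.8 ± 6.61 (SD, n = 3 each), a log2 fold change of -2.10 (SE 0.74, edgeR unadjusted p = 0.0255, adjusted p = 0.9999, exact permutation p = 0.3). Leaving out any single library gave log2 fold changes from -2.58 to -1.66. Its relative Ifi27l2b, 90.7% identical over 236 bases, had at most 4.57 estimated counts in any library.

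**Figure D1:**
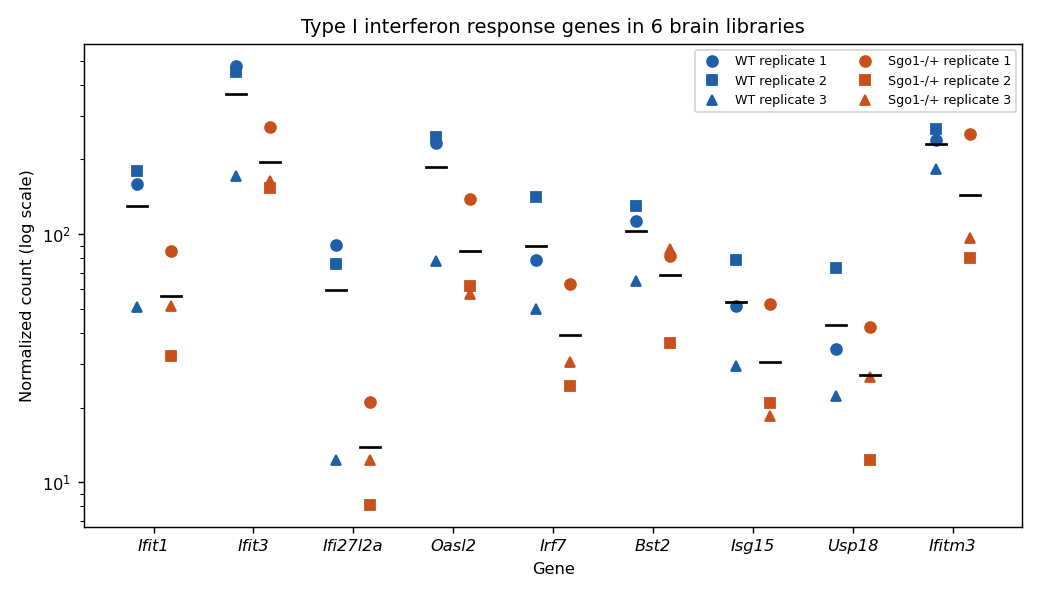
Normalized counts (vertical axis, log scale) of the 9 interferon response genes (horizontal axis) in the 3 WT and 3 Sgo1-/+ libraries, with 1 symbol per mouse and a bar at the group mean. WT replicate 3 (blue triangle) lies beside the Sgo1-/+ mice in most genes, as in Ifit1 with 50.7 against 32.3 to 85.4.

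Per kilobase of annotated exon, the mean level in WT was highest for Ifitm3 (339 normalized counts per kb), then Ifit3 (210.0), Ifi27l2a (128), Bst2 (114), Isg15 (70.3), Ifit1 (48.9), Oasl2 (29.1), Irf7 (23.8) and Usp18 (15.5). Neighbours in this order mostly do not differ beyond their spread between mice, since the highest WT mouse was 1.45-fold (Ifitm3) to 7.39-fold (Ifi27l2a) above the lowest. The order also depends on the annotation, since a longer exon length lowers the level per kb. Irf7 had 3776 exon bases in 1 block over 13 transcripts and Oasl2 had 6374 over 9, while Ifit1 and Ifit3 had 1 transcript each.

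After Benjamini-Hochberg adjustment, the quasi-likelihood test of edgeR called 0 of 16337 genes (0.0%) at an adjusted p under 0.05, and 0 of the 9, each at an adjusted p of 0.9999. DESeq2's Wald test called 3 genes, edgeR's likelihood ratio test 2 and limma 0, with 0 of the 9 in each. An unadjusted p under 0.05 in the quasi-likelihood test was seen for 333 genes, with 1.23% of all genes tested lower in Sgo1-/+ and 0.808% higher. Of the 9, 2 were among the lower (Ifi27l2a and Irf7) and 0 among the higher. The number depended on single mice. It became 5 when WT replicate 3 was left out, 7 when Sgo1-/+ replicate 1 was, 1 when WT replicate 1 was, and 0 without WT replicate 2, Sgo1-/+ replicate 2 or Sgo1-/+ replicate 3. Without WT replicate 3, 6.21% of all genes had such a p, and without Sgo1-/+ replicate 1, 2.16%.

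Complete separation of the groups was seen in 0 of the 9 genes, beside 3.57% of all genes with every Sgo1-/+ mouse below every WT mouse and 3.28% with every one above. With WT replicate 3 left out, 6 of the 9 separated, beside 11.4% of all genes in that direction. With Sgo1-/+ replicate 1 left out, 5 of the 9 separated, beside 7.98% of all genes. Leaving out any other library left 0 of the 9 separated. Both libraries were chosen for mention after their values were seen, and nothing in the labels sets either mouse apart from the other mice of its group.

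**Figure D2:**
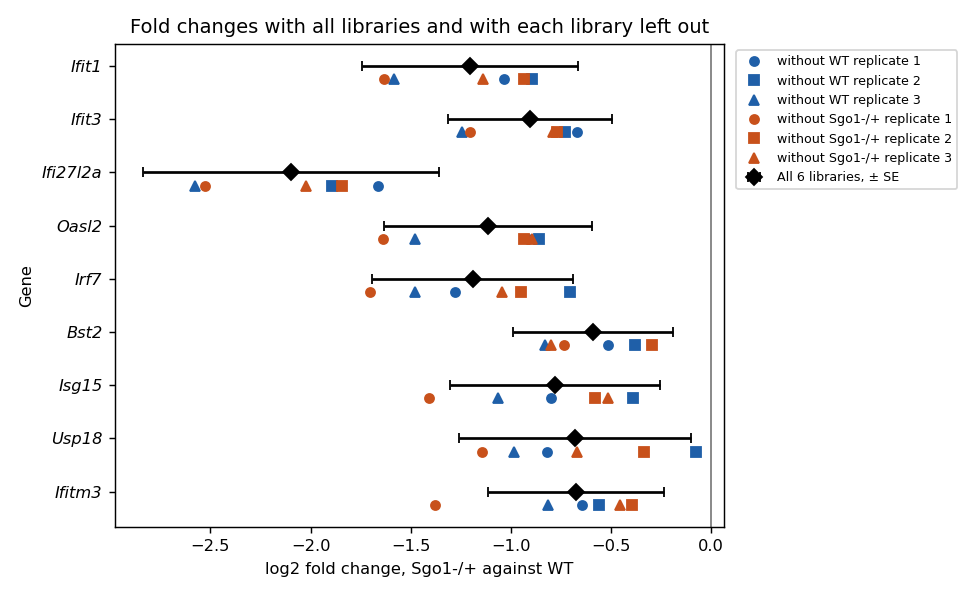
Log2 fold change of Sgo1-/+ against WT (horizontal axis) for each of the 9 genes (vertical axis), with all 6 libraries (black diamond, bar ± SE) and with each library left out in turn (coloured symbols). Every value lies below 0, from -2.58 for Ifi27l2a without WT replicate 3 to -0.07 for Usp18 without WT replicate 2.

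Across the 6 mice the 9 genes varied together. Pearson's r of log2 normalized counts was between 0.710 (Bst2 with Isg15) and 0.988 (Ifit3 with Oasl2) over the 36 pairs, with a median of 0.892, as a description over 6 libraries that also share the group difference. WT replicate 2 was the highest of the 6 mice in 7 genes and WT replicate 1 in Ifit3 and Ifi27l2a. Over all genes tested these mice were the highest in 18.25% and 28.07%. Sgo1-/+ replicate 2 was the lowest in 7 genes and Sgo1-/+ replicate 3 in Oasl2 and Isg15, beside 13.94% and 12.98% of all genes. WT replicates 1 and 2 were both above the other 4 mice in 6 of the 9 genes, beside 9.52% of all genes tested. This pattern was named after its values were seen. Within WT, replicate 2 exceeded replicate 3 by 1.45-fold (Ifitm3) to 6.15-fold (Ifi27l2a). WT replicate 3 itself was 0.826 to 1.28 times the Sgo1-/+ mean. Within Sgo1-/+, replicate 1 exceeded replicate 2 by 1.76-fold (Ifit3) to 3.42-fold (Usp18).

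The 5 genes outside the 9 whose levels most resembled their mean profile were Slc6a20a, an amino acid transporter (Pearson's r 0.993), Cybrd1, a ferric reductase (0.985), Cflar, an inhibitor of caspase activation (0.984), Smox, a spermine oxidase (0.983), and Fancm, a DNA repair helicase (0.981). They were taken over 6 libraries from 12984 genes with a mean of at least 50 normalized counts, of which 34 (0.262%) reached 0.95. Slc6a20a had 223, 249 and 145 normalized counts in WT and 168, 107 and 119.5 in Sgo1-/+, with the same order of mice as the mean profile. None of the 75 interferon pathway genes at that level reached 0.95, and the nearest were Rtp4 (0.940), Gbp6 (0.930) and Parp14 (0.928).

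The rest of the pathway was read from a list of 140 genes by role. The 14 interferon genes themselves were at the limit of detection, 10 of them at 0 estimated counts in every library and none above 1.0. A count of 0 allows up to 3 counts at this depth, so interferon transcripts were not detectable and are not shown to be absent. The 4 receptor genes differed little. Ifnar1 had a log2 fold change of -0.09 (SE 0.14), Ifnar2 of -0.12 (SE 0.17), Ifngr1 of 0.15 (SE 0.12) and Ifngr2 of 0.10 (SE 0.11), none past the test. Jak1 stood at 0.04 (SE 0.11) and Tyk2 at -0.02 (SE 0.15).

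Stat2, a transcription factor downstream of the receptor, had 559, 378 and 379 normalized counts in WT and 335, 349 and 361 in Sgo1-/+. Every Sgo1-/+ mouse lay below every WT mouse, with a log2 fold change of -0.33 (SE 0.18, edgeR unadjusted p = 0.104, adjusted p = 0.9999, exact permutation p = 0.1). Irf9, its DNA-binding partner, had 237.5, 212 and 132 in WT and 154.5, 138 and 121 in Sgo1-/+. Its groups overlapped through WT replicate 3 (log2 fold change -0.49, SE 0.24, edgeR unadjusted p = 0.0856). Irf3, which starts interferon transcription after sensing, stood at -0.29 (SE 0.26).

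**Figure D3:**
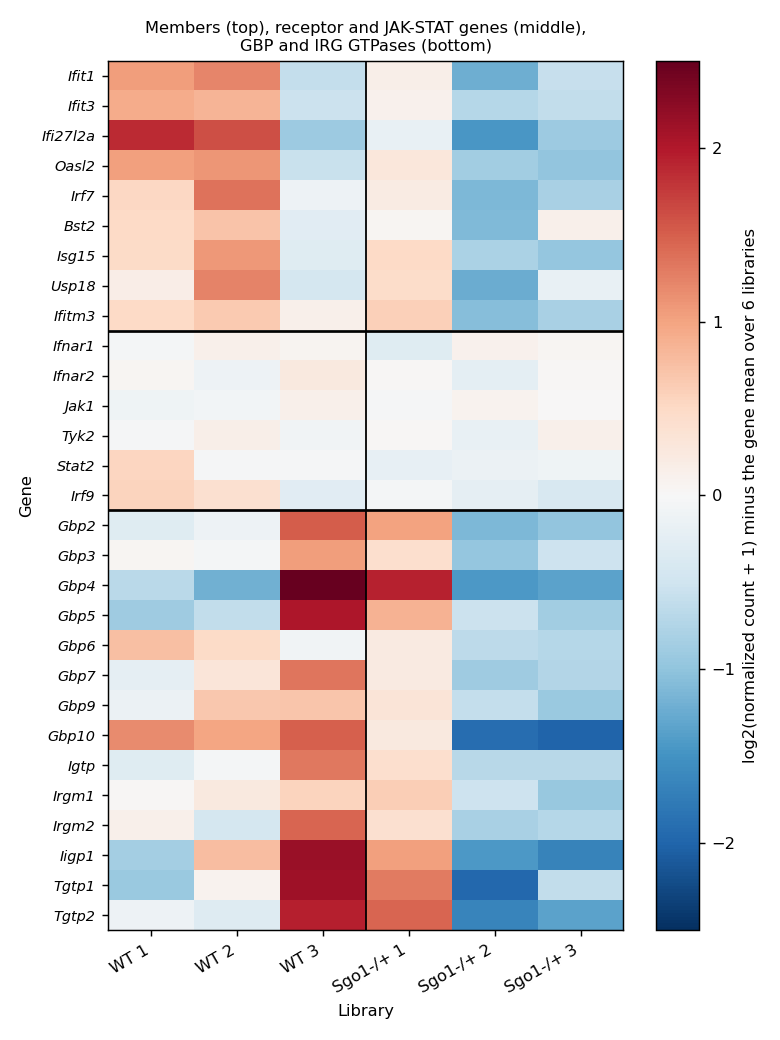
Log2 of normalized count plus 1 minus the gene's mean over the 6 libraries (colour, blue lower and red higher) for the 9 genes (top), receptor and JAK-STAT genes (middle) and GBP and IRG GTPases (bottom), with 1 column per library. The 9 genes are highest in WT replicates 1 and 2, while 12 of the 14 GTPases are highest in WT replicate 3.

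Of the 140 pathway genes 114 passed the filter on low counts, with 92 lower and 22 higher in mean. By role, 12 of 26 nucleic acid sensing genes were higher and 14 lower, 3 of 10 signal transduction genes higher and 7 lower, and 5 of 74 other induced genes higher and 69 lower. The median log2 fold change was -0.09 for sensing, -0.03 for signal transduction and -0.50 for other induced genes. The most abundant gene of sensing was Adar, the RNA-editing enzyme, with a log2 fold change of 0.09, and of the other induced genes Ly6e, a surface protein, with 0.26. None of the 114 passed the adjusted threshold. At an unadjusted p under 0.05, 9 were lower, beside 1.23% of all genes, and 0 were higher. Among them were the ribonuclease H2 subunit Rnaseh2a (-0.52), Gbp10 (-2.15), Ifitm1 (-1.29), the oligoadenylate synthetase relative Oas1b (-0.83), Slfn2 (-0.80), Parp14 (-0.77), Dtx3l (-0.50) and Pnpt1 (-0.43), all as log2 fold changes. Counted in either direction, the number was 11 without WT replicate 1, 4 without WT replicate 2 and 17 without WT replicate 3. Of the 17, 16 were lower. The number was 22 without Sgo1-/+ replicate 1, 2 without Sgo1-/+ replicate 2 and 1 without Sgo1-/+ replicate 3. Among all genes, the share with such a p was 3.77%, 2.32% and 6.21% without WT replicates 1, 2 and 3 in turn. For Sgo1-/+ replicates 1, 2 and 3 left out in turn, it was 2.16%, 1.44% and 1.51%. Of the 114, groups did not overlap in 10 genes that were lower, beside 3.57% of all genes tested (among them Stat2, Zbp1, Rnaseh2a, Trex1, Gbp10, Oas1b, Slfn2, Parp14 and Dtx3l) and in 3 that were higher, beside 3.28% (Sting1, Ifngr1 and Ptpn6). Parp14, a mono-ADP-ribosyltransferase, had 165, 154 and 116 normalized counts in WT and 108, 69.1 and 77.5 in Sgo1-/+, and Dtx3l, a ubiquitin ligase, 130.6, 109 and 129.8 against 82.7, 90.8 and 87.1. Sting1, the adaptor of cytosolic DNA sensing and 1 of these 3, had 41.3, 32.9 and 38.6 normalized counts in WT and 47.7, 56.7 and 55.3 in Sgo1-/+ (log2 fold change 0.51, SE 0.23, edgeR unadjusted p = 0.0636).

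**Figure D4:**
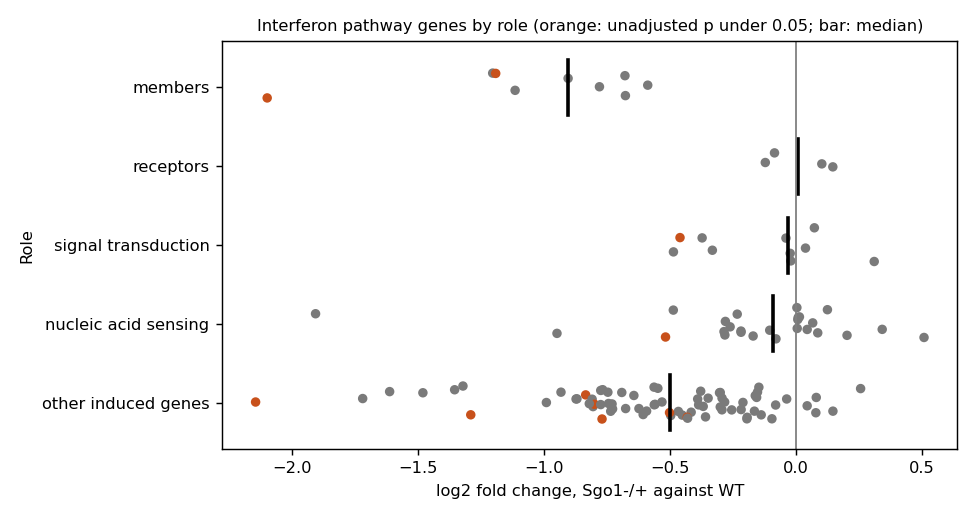
Log2 fold change of Sgo1-/+ against WT (horizontal axis) for the tested interferon pathway genes by role (vertical axis), with 1 point per gene, orange where the unadjusted p is under 0.05, and a bar at the median. The medians stand at -0.90 for the 9 genes and -0.50 for other induced genes, and near 0 for receptors, signal transduction and sensing.

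Close relatives of the 9 genes differed among themselves. Ifitm1, next to Ifitm3, had 34.2, 59.0 and 25.1 normalized counts in WT and 25.8, 8.11 and 14.3 in Sgo1-/+ (log2 fold change -1.29, SE 0.51, edgeR unadjusted p = 0.0402). Ifitm2 stood at -0.20, Ifitm7 at -0.08 and Ifitm10 at -0.42 on the log2 scale, none past the unadjusted threshold. Ifit2 stood at -0.39, Ifit3b at -0.53, Ifit1bl1 at -0.15 and Ifit1bl2 at 0.74, and Ifi27, the relative of Ifi27l2a, at -0.15. Ifi27l2b, Oasl1 and Ifitm6 did not pass the filter on low counts.

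The guanylate-binding (GBP) and immunity-related (IRG) GTPases are induced foremost by interferon gamma, and followed another order of mice. This group was formed after its values were seen and has no test. Gbp4 had 42.3, 28.9 and 456 normalized counts in WT and 262, 24.6 and 26.3 in Sgo1-/+, so that WT replicate 3, low for the 9 genes, was the highest mouse. Gbp5 had 39.9, 48.6 and 306 in WT and 137, 51.2 and 40.4 in Sgo1-/+, again with WT replicate 3 and Sgo1-/+ replicate 1 on top. Of the 14 GTPases, 12 were highest in WT replicate 3, beside 15.1% of all genes tested, and the exceptions were Gbp6 and Irgm1. WT replicate 3 and Sgo1-/+ replicate 1 were the 2 highest mice in 10 of the 14, beside 5.79% of all genes and 0 of the 9 type I genes.

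Markers of other cell types and regions were read beside these results, as sums of normalized counts over each list, and their part in the results was not tested. In bulk tissue fewer cells of a type and less RNA per cell cannot be told apart. The 15 microglial markers, all detected, summed to 6627 to 7917 in WT and 7735 to 9256 in Sgo1-/+, with the 2 highest sums in Sgo1-/+. The 10 endothelial markers summed to 3734 to 3981 in WT and to 3348, 3725 and, in Sgo1-/+ replicate 1, 5641. That mouse stood out in Ly6c1 (1045, others 343.5 to 628), Ly6a (923, others 242 to 419) and Pecam1 (642, others 234 to 309). It was also highest for Tek, Cdh5 and Esam, but lay within the range of the others for Cldn5, Flt1, Kdr and Slco1a4. Its sum thus cannot be read as an amount of endothelium. The 9 meningeal markers summed to 2437, 2495 and 1734 in WT and 1979, 617 and 2159 in Sgo1-/+. The 8 perivascular macrophage markers summed to 329, 521 and 397 in WT and 457, 309.6 and 321 in Sgo1-/+. Within these lists Slc22a6 of the meninges (log2 fold change -1.11, edgeR unadjusted p = 0.00831) and Cbr2 of perivascular macrophages (-1.78, edgeR unadjusted p = 0.00934) were lower without overlap of the groups. The 16 leukocyte markers summed to 204 to 867 in WT and 355 to 638 in Sgo1-/+, with the neutrophil marker Ly6g at 0 in every library. Cd4 had 7.05, 165.5 and 299 normalized counts in WT and 344, 399 and 200.5 in Sgo1-/+. It was the largest part of the sum in WT replicate 3 and every Sgo1-/+ mouse. Cd3e and Cd3g had at most 4.53, so the sum rests on few genes and cannot be read as an amount of leukocytes. The highest sum was that of WT replicate 2, which held 204 normalized counts of S100a8 and 329 of S100a9, beside at most 19.99 and 34.6 in the other mice. Markers of red blood cells summed to 4024 to 6358 in WT and 1393 to 17050 in Sgo1-/+, and those of astrocytes to 43960 to 45500 and 45140 to 49670. Slc1a2 was the largest part of the astrocyte sum, at 14710 in WT replicate 1 and 25090 to 28830 in the other mice. Gfap ranged from 3034 in Sgo1-/+ replicate 2 to 9929 in WT replicate 1, so single astrocyte markers were not level across mice. Sgo1-/+ replicate 2, lowest in 7 of the 9 interferon genes, had the lowest sum for meninges, endothelium, perivascular macrophages and choroid plexus. It was not the lowest for microglia, leukocytes, red blood cells or astrocytes.

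Regional markers set WT replicate 1 apart. Its cerebellar granule cell markers summed to 19030 normalized counts, beside 1203 to 2370 in the other 5 mice, and its brain stem markers to 9681, beside 774 to 1589. Purkinje cell markers summed to 38000 there and to 11830 to 15280 elsewhere, and cortex and hippocampus markers to 4374 there and to 15750 to 17890 elsewhere. Itpr1 was the largest part of the Purkinje cell sum in every mouse, at 17720 there and 9523 to 12050 elsewhere. Pcp2 had 1596 there and 11.1 to 42.0 elsewhere, and Car8 had 6568 and 76.0 to 437. The regional markers of WT replicate 1 go against the dissection that the study's methods describe. Its mean Pearson's r with the other libraries across genes was 0.932, beside 0.964 to 0.968 for each other library. Without WT replicate 1 the median log2 fold change of the 9 genes was -0.82, with 9 of 9 lower. Ifi27l2a then went from -2.10 to -1.66 and Ifit3 from -0.90 to -0.67. Ifit1, Oasl2, Bst2 and Ifitm3 also moved toward 0, while Irf7, Isg15 and Usp18 moved further below it. WT replicate 2 had 2074 granule cell and 774 brain stem counts. The part of cerebellar or brain stem tissue in the results was not tested. The 8 olfactory bulb markers, of another region that the dissection left out, summed to 534, 2377 and 1844 in WT and 1261, 415.5 and 185 in Sgo1-/+, with a median log2 fold change of -1.34. WT replicate 2 was highest, as in 7 of the 9 genes, and Sgo1-/+ replicates 2 and 3 were lowest, while WT replicate 3 was high and WT replicate 1 low. Choroid plexus markers summed to 21390, 7695 and 660 in WT and 1295, 403 and 24610 in Sgo1-/+. The part of olfactory bulb or choroid plexus tissue in the results was not tested either. Sgo1 itself had 0, 7 and 0 estimated counts in WT and 4, 2 and 0 in Sgo1-/+, too few to show a difference at library totals of 11123917 to 12505561.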

How the data were processed

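Brain RNA of 3 WT and 3 Sgo1-/+ mice was sequenced on an Illumina MiSeq. Using Strand NGS 2.1, the authors aligned paired reads against mm10, and they deposited an estimated count per Ensembl gene and library, not normalized, of which 47.4 to 48.6% are not whole. BWA and edgeR, without versions, are named in the submitters' processing notes. The Ensembl release and strand setting are not given in the sources used here. The table also holds the authors' normalized log2 values and their fold changes between the groups, which were not used. Columns carry brain numbers and not genotypes. The table's header names the contrast, WT against Sgo1, and the authors' fold change equals the mean of the columns assigned to WT minus that of the columns assigned to Sgo1-/+, while replicate numbers follow the sample number within each run. Genes on the sex chromosomes matched the labelled sex in 6 of 6 libraries.

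Estimated counts were rounded and fitted with edgeR 4.0.16 (R 4.3.3, TMM, filterByExpr, quasi-likelihood test, no covariates, Benjamini-Hochberg adjustment over 16337 genes), after the scripts were tested on simulated data. To normalize, each estimated count was divided by the effective (TMM) size of its library and rescaled to the average effective size. The biological coefficient of variation was 25.9%. Permutation tests (scipy 1.17.1) ran over all 20 groupings of the 6 libraries. Levels per kilobase use the union of annotated exons (GENCODE M21), and near-identical copies were sought with blastn 2.17.0 (at least 90% identity over 200 bases). Besides Ifit3b and Ifi27l2b, the search found Gm6885 for Ifitm3 (91.6% over 356 bases) and AC151275.1 for Isg15 (95.2% over 482 bases). Neither copy has an entry among the 38087 genes, so how reads that match them were counted is not known. Totals of 11123917 to 12505561 limit low genes, and limits on a count of 0 cover counting error only.

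The 9 genes and all lists were chosen with earlier results of these data known. Genes named in the text are the 9, pathway genes with an unadjusted p under 0.05 or groups that do not overlap, receptors, JAK-STAT genes and Irf3, relatives of the 9, the most abundant gene per role, the 5 genes most alike in profile and leading or co-varying markers. Some genes that meet this rule are not reported here. The GTPases, Ly6g, S100a8, S100a9, Cd4, Cd3e, Cd3g and the single endothelial, astrocyte and Purkinje cell markers were named after their values were seen. Alternatives were DESeq2 1.42.0, edgeR's likelihood ratio test, limma 3.58.1 on log2 values plus 1, DESeq2's size factors, other filters, sex as covariate, females only, the replicate number as a block and each library left out. The separation of the groups with each library left out was added after seeing the data.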

Additional observations from a re-analysis of the deposited data

How the results depend on the processing

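All 134 log2 fold changes of the 9 genes under 15 alternatives were negative, from -2.58 to -0.07, and their median stayed between -1.41 and -0.60, the latter in females only. None of the 9 was called under any alternative, and the lowest adjusted p was 0.764 (edgeR without WT replicate 3).

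Genes called numbered 0, against 3 by DESeq2, 2 by edgeR's likelihood ratio test and 1 in females only, and 0 to 1 with each library left out. Of the 9 genes, 2 had an unadjusted p under 0.05, against 5 by DESeq2, 5 by the likelihood ratio test, 5 with no filter on low counts, 1 (Ifi27l2a not tested) with at least 10 counts in every library, 0 by limma, 0 in females only, and 0 to 7 with each library left out. Pathway genes with such a p numbered 9, against 3 in females only, 4 with the replicate block and 1 to 22 with each library left out. Of all genes tested, 2.04% had such a p, against 2.26% by DESeq2, 2.32% by the likelihood ratio test and 2.16% with no filter. The share was 2.03% with at least 10 counts in every library, 2.58% by limma, 3.51% in females only and 1.71% with the replicate block. It was 1.44% to 6.21% with each library left out. Genes of the 9 whose groups did not overlap numbered 0, against 0 to 6 with each library left out, an alternative added after seeing the data. The cause of these differences was not tested.

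Replicate numbers did not pair the libraries. Deviations from the group means correlated at -0.15, 0.01 and -0.21 between libraries of the same number. With the replicate block the median log2 fold change of the 9 genes was -0.84. An unadjusted p under 0.05 was then seen in 3 of the 9, beside 1.71% of all genes tested. The run could not be fitted, since it coincides with genotype. Normalized counts as low as 8.11 for Ifi27l2a and 12.3 for Usp18 limit the precision of their fold changes.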
